A study of Mus musculus with 7 samples.

Results

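The interferon regulatory factor (IRF) genes Irf1, Irf2, Irf3, Irf4, Irf5, Irf7, Irf8 and Irf9 were followed in macrophages sorted from injured mouse sciatic nerve. They were picked out by gene symbol, with earlier results of these data known, and make up 8 of the 23361 genes quantified. The mice were BALB/cJ, an inbred strain, carried no transgene or deletion and received no treatment that differed between groups, all having had meloxicam as an analgesic. Their left sciatic nerve was cut and at once sutured into an inert conduit. Macrophages were sorted from the tissue that bridged the conduit (Lin-, F4/80+, CD14+, CD11b+ and CD16/32+), and polyA+ RNA was sequenced from 3 libraries at day 5, 2 at day 14 and 2 at day 28 after repair. The age of these mice, and whether a library came from 1 mouse or from pooled mice, are not given in the sources used here. The labels number the libraries of a time point as replicates without naming animals, so the p-values below measure the spread between libraries, which may be partly technical. No uninjured nerve was included, so every comparison is between time points. Because whole sorted populations were sequenced, fewer cells of a type and less RNA per cell cannot be told apart.

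IRF proteins share a DNA-binding domain that recognises GAAA-containing elements in interferon-responsive promoters. IRF3 and IRF7 are activated downstream of nucleic acid sensors and switch on type I interferon genes, and IRF9 joins STAT proteins in the ISGF3 complex, which carries the interferon signal to the nucleus and has Irf7 among its targets. IRF1 activates many interferon-gamma-responsive genes and IRF2 mostly opposes it, IRF5 drives inflammatory cytokine genes, and IRF4 and IRF8 bind DNA with partners such as PU.1, IRF8 being needed for monocyte development and IRF4 taking part in the macrophage response to IL-4.

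The composition of the family changed over the time course. Between days 5 and 28, mean FPKM (a fragment count adjusted for transcript length and library size, and so comparable between genes) of Irf7 was 5.31-fold lower, that of Irf9 was 1.54-fold lower and that of Irf4 was 3.79-fold higher, and all 3 passed the test. Irf1, Irf2, Irf3, Irf5 and Irf8 did not pass it in any comparison. Irf7 was the most abundant member at days 5 and 14, and Irf5 at day 28.

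Between 18027190 and 35247116 fragments were assigned to genes per library. The 2 day 14 libraries stood apart from each other. Over 7556 expressed genes, the Pearson correlation of log2(FPKM + 1) of replicate 1 was 0.975 to 0.979 with the day 5 libraries and 0.953 to 0.967 with the day 28 libraries, whereas for replicate 2 it was 0.945 to 0.956 and 0.974 to 0.981, respectively. These correlations are across genes, which are not independent replicates. The summed level of 6 fibroblast genes was also 220.5 FPKM in day 14 replicate 1, 80.3 FPKM in replicate 2 and 28.8 to 73.4 FPKM in the other 5 libraries. The members are therefore given with each day 14 library. The 10 macrophage markers checked, which included the genes of the sorted surface proteins, summed to 16815 to 22906 FPKM over the 7 libraries. Most of this sum was Lyz2, at 10675 to 18377 FPKM, whose protein was not used in the sort. Between days 5 and 28, 2 of the 10 markers fell (Cd14 and Emr1, which encodes F4/80) and none rose. The count of 2 was 0 without day 28 replicate 1, 1 without day 5 replicate 1 and 4 without either day 14 library.

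Positions are those of the GRCm38 assembly, also called mm10. Irf1 is at chr11:53770014-53778374, Irf2 at chr8:46739732-46847458, Irf3 at chr7:44997648-45002848, Irf4 at chr13:30749226-30766976, Irf5 at chr6:29526625-29541871, Irf8 at chr8:120736358-120756694 and Irf9 at chr14:55603571-55610030, all on the plus strand, and Irf7 is at chr7:141262706-141266481 on the minus strand. All are protein-coding. Of the annotated exon bases of Irf5, 14.15% are shared with Tnpo3, a nuclear import receptor gene on the opposite strand, and the library kit does not mark strand, so reads in that stretch cannot be assigned to one of these genes by strand. For Irf1, Irf3, Irf7 and Irf9 the shared part came to 3.395%, 2.557%, 1.192% and 2.284%, and for Irf2, Irf4 and Irf8 no exon base was shared. Every member was well covered, with 302 fragments (Irf4, day 5 replicate 3) to 23884 fragments (Irf7, day 5 replicate 1).

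The sequences before the RefSeq transcription starts of the members (GRCm38.p6) were searched over 250 bases for the palindromic element TTCNNNGAA, which reads the same on both strands, and for an IRF-type element, GAAA followed by any 2 bases and again GAAA, on either strand. All 8 members had a start in the table, with 11 starts in all. Printed here are Irf1, Irf8 and Irf2, which held a match, and Irf7 and Irf4, the members that changed most, 5′ to 3′ and cut where the annotated gene begins. Capitals mark the matches.
Irf1, chr11:53769764-53770013, plus strand: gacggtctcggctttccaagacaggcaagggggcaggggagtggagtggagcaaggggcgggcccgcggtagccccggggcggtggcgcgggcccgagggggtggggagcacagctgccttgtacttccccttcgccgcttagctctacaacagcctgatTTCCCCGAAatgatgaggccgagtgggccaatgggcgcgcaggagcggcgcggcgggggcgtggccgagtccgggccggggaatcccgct
Irf8, chr8:120736108-120736357, plus strand: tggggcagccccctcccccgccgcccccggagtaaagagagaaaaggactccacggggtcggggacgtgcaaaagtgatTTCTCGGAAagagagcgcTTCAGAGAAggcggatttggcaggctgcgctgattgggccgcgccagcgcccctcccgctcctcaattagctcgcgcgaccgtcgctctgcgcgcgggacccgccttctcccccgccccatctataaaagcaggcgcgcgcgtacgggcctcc
Irf2, chr8:46739495-46739731, plus strand: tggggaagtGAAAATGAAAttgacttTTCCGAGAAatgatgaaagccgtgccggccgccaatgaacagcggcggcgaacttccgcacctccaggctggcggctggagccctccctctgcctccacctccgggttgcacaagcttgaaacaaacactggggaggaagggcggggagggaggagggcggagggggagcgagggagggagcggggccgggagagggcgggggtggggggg
Irf7, chr7:141266482-141266674, minus strand: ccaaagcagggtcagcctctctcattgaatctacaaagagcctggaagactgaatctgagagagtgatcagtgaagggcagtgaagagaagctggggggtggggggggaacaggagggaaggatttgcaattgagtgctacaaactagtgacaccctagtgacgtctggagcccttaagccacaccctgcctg
Irf4, chr13:30748983-30749225, plus strand: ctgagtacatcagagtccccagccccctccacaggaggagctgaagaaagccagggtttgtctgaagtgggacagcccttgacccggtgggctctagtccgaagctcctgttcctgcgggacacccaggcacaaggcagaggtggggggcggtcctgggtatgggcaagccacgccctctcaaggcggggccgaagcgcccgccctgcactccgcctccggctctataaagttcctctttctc

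Irf1 held TTCCCCGAA 90 to 82 bases before its start, and Irf8 held TTCTCGGAA and TTCAGAGAA at 171 to 163 and 153 to 145 bases. Irf2 held both kinds, with GAAAATGAAA at 241 to 232 bases and TTCCGAGAA at 224 to 216 bases. Of all 32817 RefSeq windows of this length, 7.015% held the palindromic element and 2.968% the IRF-type element. The windows of Irf3, Irf4, Irf5, Irf7 and Irf9 had neither of these letter strings. A match describes the letters only, and its absence says nothing of the factors that bind there.

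**Figure D1:**
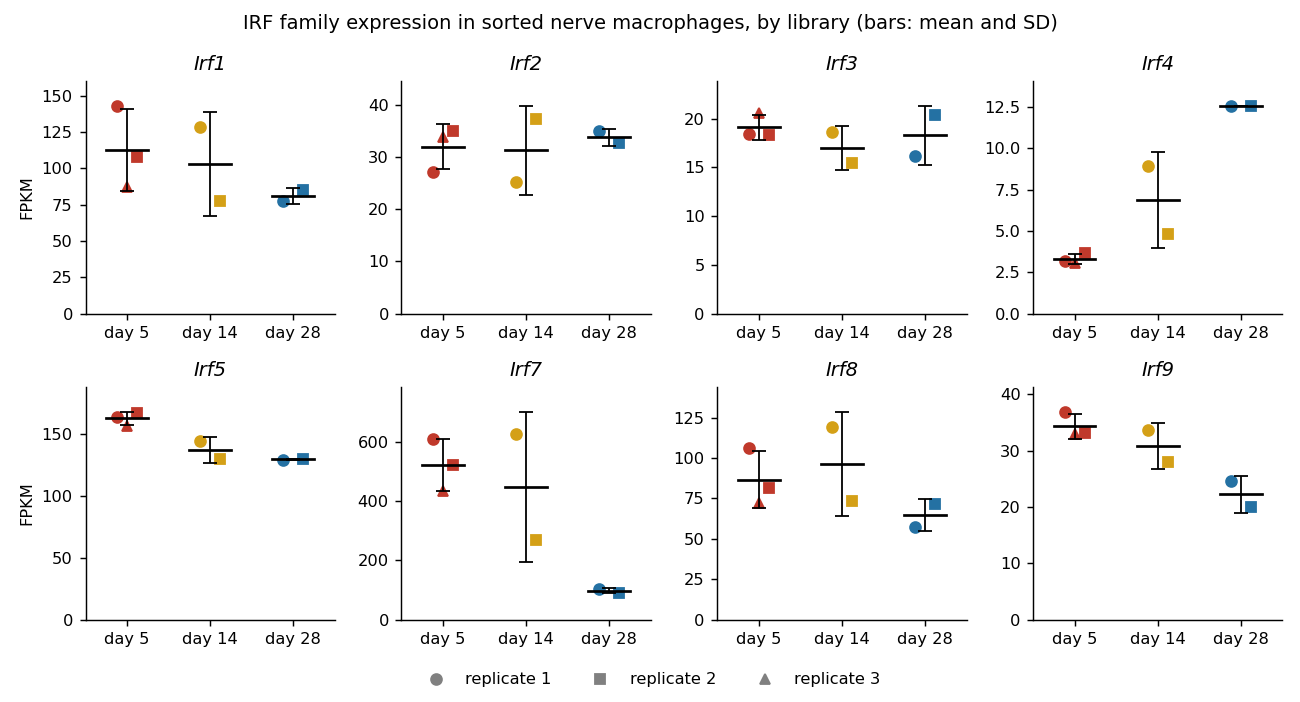
Expression of the 8 IRF genes (vertical axes, FPKM, each starting at 0) in every library at days 5, 14 and 28. Circles, squares and triangles are replicates 1, 2 and 3, horizontal bars are means and error bars are SD. Irf4 was lowest at day 5 and highest at day 28, Irf7 and Irf9 were lowest at day 28, and the 2 day 14 libraries were wide apart for Irf1, Irf4, Irf7 and Irf8.

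Irf7, which amplifies type I interferon production, had the most negative change among the 8 members. It was expressed at 609.5, 522 and 433 FPKM in day 5 replicates 1, 2 and 3, at 626 and 269 FPKM in day 14 replicates 1 and 2, and at 105 and 91.5 FPKM in day 28 replicates 1 and 2. Both day 28 libraries lay below all the others, while day 14 replicate 1 lay above every day 5 library and day 14 replicate 2 lay below them. Averaged over libraries, day 5 had 522 ± 88.2 FPKM (SD, n = 3), day 14 had 447 ± 252 (n = 2) and day 28 had 98.2 ± 9.42 (n = 2). From day 5 to day 28 the log2 fold change was -2.40 (SE 0.32, 95% interval -3.13 to -1.67, adjusted p = 0.00267, edgeR). Of the 12858 genes tested, 87 had a more negative log2 fold change. It stayed under the threshold in each of the 18 alternative settings, with log2 fold changes from -2.52 to -2.27.

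The log2 fold change of Irf7 between days 14 and 28 was -2.18 (SE 0.34) and the adjusted p of 0.0554 missed the threshold. DESeq2 gave 2.96e-10 for it, and edgeR gave 0.0121 (log2 fold change -1.46) without day 14 replicate 1 and 1.4e-04 (log2 fold change -2.67) without day 14 replicate 2. It did not pass between days 5 and 14 (log2 fold change -0.22, 95% interval -0.88 to 0.45, adjusted p = 0.699), and this value rested on the choice of library, at -0.94 (adjusted p = 0.00849) without day 14 replicate 1 and 0.27 (adjusted p = 0.522) without replicate 2.

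Irf3, the sensor-activated partner of IRF7 that is made without prior induction, did not pass the test in any comparison. Its values were 18.4, 18.3 and 20.5 FPKM at day 5, 18.6 and 15.4 FPKM at day 14, and 16.2 and 20.4 FPKM at day 28. The 3 time points overlapped. The log2 fold change from day 5 to day 28 was -0.04, with a 95% interval of -0.36 to 0.27. Irf7 was thus expressed at 21.1 to 33.1 times the FPKM of Irf3 at day 5, at 33.6 and 17.5 times at day 14, and at 6.48 and 4.48 times at day 28.

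Irf9, the DNA-binding subunit of ISGF3, also fell, by a smaller factor. It was expressed at 36.8, 33.2 and 32.9 FPKM at day 5, 33.6 and 28.0 FPKM at day 14, and 24.6 and 19.9 FPKM at day 28. Both day 28 libraries were below all others, and days 5 and 14 overlapped. From day 5 to day 28 the log2 fold change was -0.61 (SE 0.13, 95% interval -0.90 to -0.31, adjusted p = 0.0176). This call was lost without day 5 replicate 1 (adjusted p = 0.0664) and without day 28 replicate 2 (adjusted p = 0.0889), each time with a negative log2 fold change. The log2 fold change was -0.14 between days 5 and 14 and -0.46 between days 14 and 28, neither past the threshold (adjusted p = 0.543 and 0.238).

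Stat2, which encodes another ISGF3 subunit, was read beside Irf9. It was at 26.4, 28.9 and 22.6 FPKM, 31.8 and 18.7 FPKM, and 18.1 and 14.4 FPKM at the 3 time points, and its log2 fold change of -0.66 (SE 0.22) from day 5 to day 28 was not past the threshold (adjusted p = 0.0702). The ratio of Irf9 to Stat2 in FPKM was 1.15 to 1.46 at day 5, 1.06 and 1.5 at day 14, and 1.36 and 1.38 at day 28, so the time points overlapped.

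Irf1 and Irf2, which compete for the same sites, were not called in any comparison but ran opposite to each other across libraries. Irf1 was expressed at 143, 108 and 87.0 FPKM at day 5, 128 and 77.5 FPKM at day 14, and 77.3 and 84.9 FPKM at day 28. The day 28 libraries were below those of day 5 and lay beside the lower of the day 14 libraries. The log2 fold change from day 5 to day 28 was -0.46 (SE 0.24, 95% interval -1.0 to 0.08, adjusted p = 0.222). Irf2 was at 27.1, 35 and 33.9 FPKM at day 5, 25.3 and 37.3 FPKM at day 14, and 35 and 32.7 FPKM at day 28, with overlap between all time points and a log2 fold change of 0.10 (95% interval -0.30 to 0.49) from day 5 to day 28. The libraries with the most Irf1, day 5 replicate 1 and day 14 replicate 1, had the least Irf2. Over the 7 libraries Pearson's r of the log2 CPM of both genes was -0.87, a description only, since both genes were read from the same libraries, which differ in time point and depth. The ratio of Irf1 to Irf2 in FPKM was 5.28 and 5.07 in these 2 libraries and 2.08 to 3.08 in the other 5.

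Irf5, the driver of inflammatory cytokine genes, was at 164, 166 and 156 FPKM at day 5, 144 and 129.5 FPKM at day 14, and 129 and 129.6 FPKM at day 28. All libraries of days 14 and 28 were below those of day 5. The log2 fold changes were -0.24 (SE 0.11, adjusted p = 0.228) between days 5 and 14 and -0.31 (SE 0.11, 95% interval -0.56 to -0.07, adjusted p = 0.0840) between days 5 and 28, neither past the threshold in edgeR. DESeq2 put the latter past it (adjusted p = 0.0375).

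Irf4 was the least abundant member and the one that rose. It was expressed at 3.20, 3.66 and 3.07 FPKM at day 5, 8.91 and 4.84 FPKM at day 14, and 12.6 and 12.5 FPKM at day 28. The libraries of the 3 time points did not overlap, and the means were 3.31 ± 0.309 (SD, n = 3), 6.87 ± 2.88 (n = 2) and 12.6 ± 0.00884 FPKM (n = 2). These values rested on 302 to 350 fragments at day 5, 723 and 487 at day 14, and 2177 and 1083 at day 28. From day 5 to day 28 the log2 fold change was 1.94 (SE 0.21, 95% interval 1.45 to 2.42, adjusted p = 0.00129), it stayed past the threshold in each of the 18 alternatives, and 319 of the genes tested had a larger one. From day 5 to day 14 it was 1.06 (SE 0.22, 95% interval 0.57 to 1.55, adjusted p = 0.0337), a 2.07-fold difference in mean FPKM.

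The day 14 call for Irf4 was less stable than that of day 28. It was lost in 12 of 18 alternatives, among them limma on log2 FPKM (adjusted p = 0.0778), the fit on days 5 and 14 alone (adjusted p = 0.0608), and the omission of any 1 library of day 5 or day 28 (adjusted p from 0.0581 to 0.109). The log2 fold change was 0.56 without day 14 replicate 1 and 1.43 without replicate 2. The change between days 14 and 28 was 0.88 (SE 0.24, adjusted p = 0.183), and 1.37 (adjusted p = 0.0121) without day 14 replicate 1.

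Irf8, the monocyte and dendritic cell lineage factor most similar to Irf4, was not called in any comparison. It was at 106, 81.6 and 72.1 FPKM at day 5, 119 and 73.4 FPKM at day 14, and 57.5 and 71.7 FPKM at day 28. The day 28 libraries were below all others. The log2 fold change was -0.41 (SE 0.23, 95% interval -0.92 to 0.10, adjusted p = 0.246) from day 5 to day 28 and -0.57 (SE 0.25, adjusted p = 0.396) from day 14 to day 28, and the latter passed without day 14 replicate 2 (log2 fold change -0.87, adjusted p = 0.0405). The FPKM of Irf8 was 22.3 to 33.1 times that of Irf4 at day 5, 13.4 and 15.2 times at day 14, and 4.58 and 5.71 times at day 28. For Irf5 against Irf4 it was 45.4 to 51.1 times, 16.2 and 26.8 times, and 10.2 and 10.3 times. Neither ratio overlapped between time points. Irf8 and Irf1 ran in parallel over the 7 libraries (Pearson's r 0.91, again a description over libraries that differ in time point and depth).

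**Figure D2:**
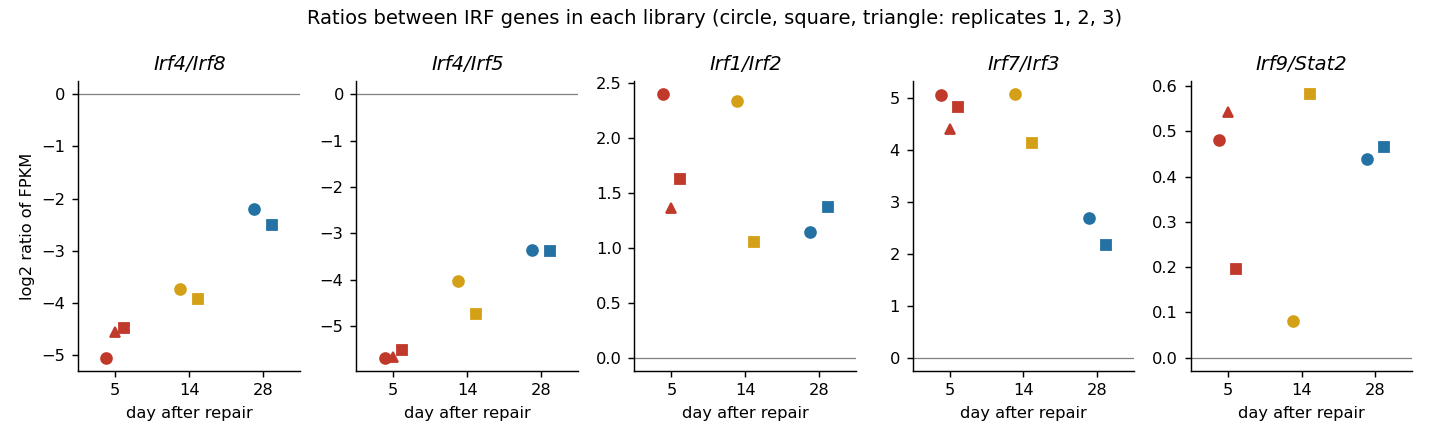
Log2 ratios of FPKM between IRF genes (and Irf9 against Stat2) in each library at days 5, 14 and 28, with replicates 1, 2 and 3 as circles, squares and triangles and a grey line at equal levels. The ratios of Irf4 to Irf8 and of Irf4 to Irf5 were higher at each later time point without overlap, Irf7 against Irf3 was lowest at day 28, and Irf9 against Stat2 overlapped throughout.

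As a whole, the family summed to 839 to 1108 FPKM in the day 5 libraries, 1104 and 635 FPKM in day 14 replicates 1 and 2, and 457 and 463 FPKM at day 28. Irf7 made up 55.0%, 54.0% and 51.6% of this sum at day 5, 56.7% and 42.4% at day 14, and 23.0% and 19.8% at day 28. The share of Irf4 was 0.289% to 0.378%, then 0.807% and 0.762%, then 2.75% and 2.71%. That of Irf5 went from 14.8% to 18.6% at day 5 through 13.1% and 20.4% at day 14 to 28.2% and 28.0% at day 28. By mean FPKM the order at day 5 was Irf7, Irf5, Irf1, Irf8, Irf9, Irf2, Irf3 and Irf4. In that order Irf1 and Irf8 overlapped over the libraries, as did Irf9 and Irf2. At day 14 the order was the same except that Irf2 and Irf9 changed places, again with overlap for these 2 and for Irf1 and Irf8. At day 28 it was Irf5, Irf7, Irf1, Irf8, Irf2, Irf9, Irf3 and Irf4, and among neighbours Irf9 and Irf3 overlapped.

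**Figure D3:**
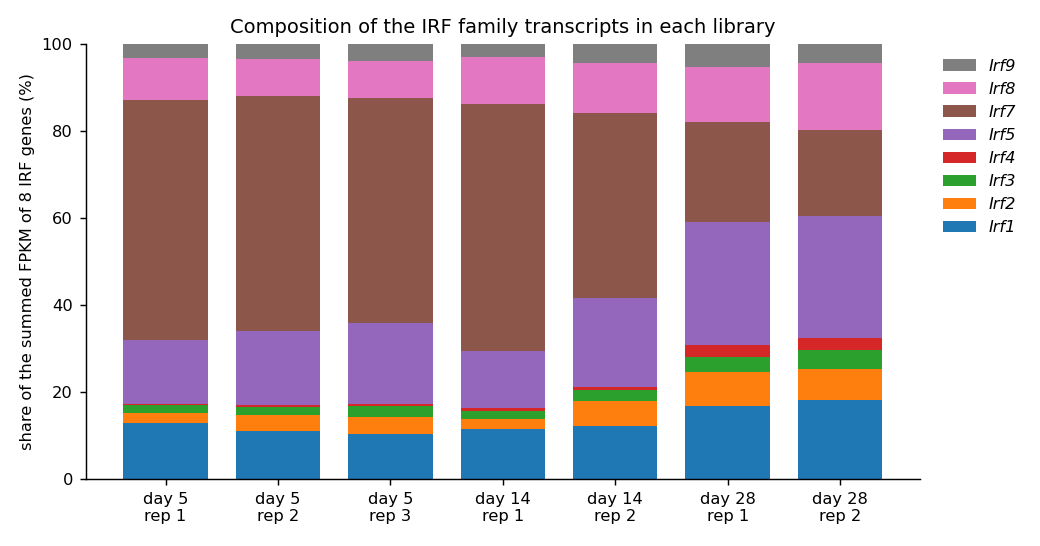
Share of each IRF gene in the summed FPKM of the 8 genes (vertical axis, %), 1 stacked bar per library. The Irf7 share was between 42.4% and 56.7% at days 5 and 14 and 19.8% to 23.0% at day 28.

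Set beside all genes tested, 1 of 8 members was called between days 5 and 14 (Irf4, higher), where 4.78% of 12858 genes were called, 2.84% higher and 1.94% lower. It met the stringent criteria too (at least a 2-fold difference in mean FPKM and a mean FPKM of at least 5 at 1 of the time points), which 1.17% of genes met, and was the only member with an unadjusted p under 0.05, beside 24.0% of genes. For days 14 and 28 no member was called by edgeR, where 0.0622% of genes were called, 0.0311% in each direction, and 0.0467% met the stringent criteria. At an unadjusted p under 0.05 there were 4 members (Irf4, Irf7, Irf8 and Irf9) against 12.2% of genes, and DESeq2 called Irf4 and Irf7 while limma called none. From day 5 to day 28, 3 of 8 members were called, 1 higher (7.74% of genes) and 2 lower (7.51%), where 15.2% of genes were called in all. Irf4 and Irf7 also met the stringent criteria, beside 3.52% of genes, and 4 members had an unadjusted p under 0.05, beside 31.5% of genes. In a test of any difference over the 3 time points, 3 members were called (Irf4, Irf7 and Irf9, adjusted p = 0.00394, 0.00687 and 0.0396) against 11.4% of genes. This count fell to 1 without either of the day 28 libraries.

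Libraries did not overlap for 2 members between days 5 and 14, 4 between days 14 and 28 and 6 between days 5 and 28, while 43.2%, 39.0% and 51.5% of all genes did not overlap in these comparisons. The median log2 fold change of the 8 members was -0.13, -0.21 and -0.36 in the 3 comparisons, beside 0.03, 0.01 and 0.03 for all genes.

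**Figure D4:**
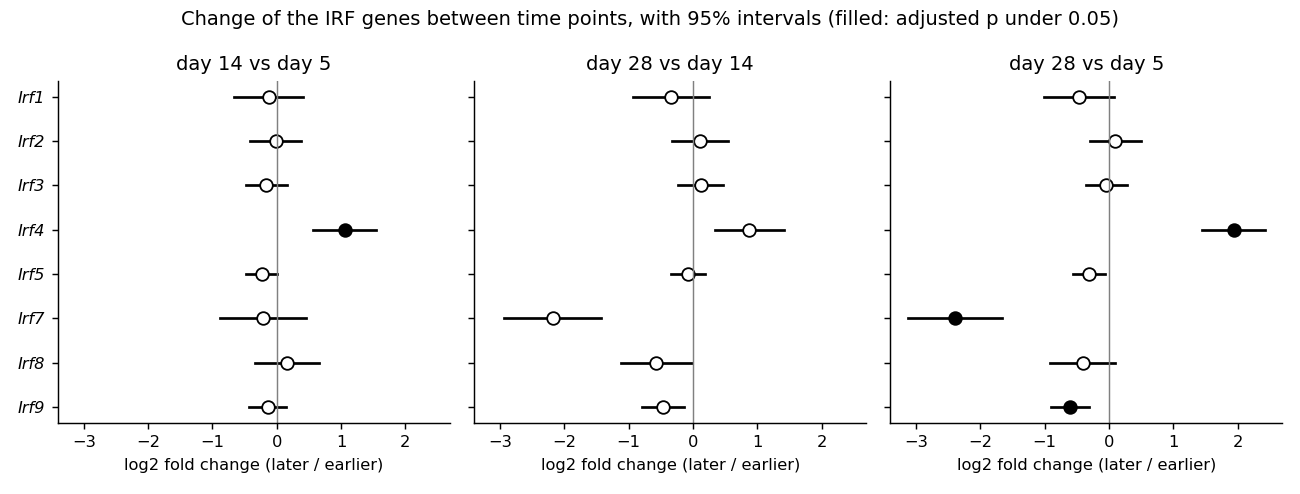
Log2 fold changes of the 8 IRF genes (horizontal axis, later over earlier time point) in 3 comparisons, with 95% intervals from the edgeR fit as lines. Filled points have an adjusted p under 0.05: Irf4 (1.06) between days 5 and 14, and Irf4 (1.94), Irf7 (-2.40) and Irf9 (-0.61) between days 5 and 28.

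The interferon genes themselves, targets of IRF3 and IRF7, were almost silent. Of 19 interferon genes in the table, 1 (Ifnb1) passed the expression filter, and their summed level ranged from 0 to 5.11 FPKM over the libraries. Ifnb1, which encodes interferon beta, had 11, 6 and 17 fragments at day 5, 25 and 0 at day 14, and 34 and 56 at day 28, and was not called in any comparison. Ifng, which encodes interferon gamma and is made mainly by lymphocytes, had 9 fragments in day 14 replicate 1 and 0 in the other 6 libraries.

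Some genes that act before the IRF factors fell. For the lists from here on, 7.51% of all genes tested were called lower and 7.74% higher from day 5 to day 28. From day 5 to day 14 these shares were 1.94% and 2.84%. Among 11 genes of interferon receptors, JAK kinases and STATs, 3 fell from day 5 to day 28 and none rose. The median log2 fold change of the 11 was -0.34. Among the 3 were Ifnar1, which encodes a type I interferon receptor chain, and Il10rb. Il10rb encodes a chain of the IL-10 receptor and is listed here because the interferon lambda receptor shares it. Ifnlr1, the gene of the other chain of that receptor, was at most 0.285 FPKM in any library. Of 25 sensors, adaptors and kinases upstream of IRF3, IRF5 and IRF7, 9 fell and none rose, with a median of -0.37. The lowest adjusted p were those of Dhx58, an RNA sensor regulator (log2 fold change -1.63, adjusted p = 0.00183), Myd88, the adaptor of most Toll-like receptors (-1.05, adjusted p = 0.00183), and Ikbke, a kinase of IRF3 and IRF7 (-1.15, adjusted p = 0.00253). Ifnar1, Ikbke and Myd88 fell between days 5 and 14 (log2 fold changes -0.58, -0.90 and -0.56, adjusted p = 0.0492, 0.0189 and 0.0407). In day 14 replicates 1 and 2 these genes were at 41.3 and 30.9, 67.6 and 53.3, and 69.4 and 55.9 FPKM, all below their day 5 libraries. When a library other than day 14 replicate 1 was left out, the call for Ifnar1 was lost and 0 or 1 of the 25 was called. Without day 28 replicates 1 and 2 in turn, the day 28 counts were 0 and 0 of 11, and 4 and 3 of 25, and without any 1 day 5 library they were 0 or 1 of 11 and 4 or 5 of 25.

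Target genes of ISGF3, IRF3 and IRF7 declined with Irf7 and Irf9. Between days 5 and 28, 16 of 20 fell and none rose, with a median log2 fold change of -1.40 beside 0.03 for all genes, and all 20 had a value below 0. The lowest adjusted p were those of Oas3 (log2 fold change -2.74, adjusted p = 0.00302), Oas1a (-1.31, adjusted p = 0.00446) and Eif2ak2 (-1.37, adjusted p = 0.00479), which encode antiviral enzymes activated by double-stranded RNA. Oas3 was at 54.9, 53.4 and 36.6 FPKM at day 5, 48.9 and 18.4 FPKM at day 14, and 7.78 and 6.57 FPKM at day 28, with day 14 split between its libraries as for Irf7. None of the 20 was called between days 5 and 14. Between days 14 and 28 none was called by edgeR and 13 by DESeq2, where 8 and 346 of all genes were called. More of the 20 were called lower between days 5 and 14 without day 14 replicate 1, and between days 14 and 28 without replicate 2. Calls over all genes also rose in both cases. The day 28 count of 16 was 6 without day 28 replicate 1 and 3 without replicate 2, while calls over all genes went from 1960 to 452 and 1012. Leaving out day 14 replicate 1 also raised the day 14 counts of genes called lower in several of the other lists. Among these were the sensors, adaptors and kinases, the receptors, kinases and STATs, the corepressors and brakes, and the IRF1 and IRF8 targets. The count of IRF5 targets stayed the same, and calls over all genes rose.

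Of 12 corepressors and brakes on IRF signalling, 4 fell from day 5 to day 28 and none rose. They were Usp18, which silences the type I interferon receptor (log2 fold change -1.81, adjusted p = 0.00336), Trex1, which degrades cytosolic DNA (-1.26, adjusted p = 0.00690), Irf2bpl, a relative of the IRF2 corepressors (-0.56, adjusted p = 0.0117), and Socs3, an inhibitor of cytokine receptor signalling (-1.62, adjusted p = 0.0291). Without day 28 replicate 1 the count was 1, and without day 5 replicate 1 it was 2. Irf2bp2, an IRF2 corepressor, was at 78.3, 87.2 and 85.7 FPKM at day 5, 91.7 and 112 FPKM at day 14, and 82.6 and 106 FPKM at day 28, and was not called.

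Target genes of IRF1 were called in both directions. Of 19 tested, 2 rose and 6 fell from day 5 to day 28, beside 7.74% and 7.51% of all genes. Their median log2 fold change was -0.66. Ciita, the master regulator of MHC class II genes, went from 2.11, 2.49 and 1.82 FPKM at day 5 to 7.56 and 6.43 FPKM at day 14 and 7.77 and 8.84 FPKM at day 28, and rose in both comparisons with day 5 (log2 fold change 1.72, adjusted p = 0.00475, and 1.96, adjusted p = 5.4e-04). Cxcl9, an interferon-gamma-induced chemokine, was at most 0.212 FPKM at day 5 and at 1.73 and 0.615 FPKM at day 28 (log2 fold change 3.05, adjusted p = 0.0475). Nos2, which encodes inducible nitric oxide synthase, was at 10.5, 2.85 and 6.34 FPKM at day 5 and had 7 fragments in each day 28 library (log2 fold change -6.61, SE 1.23, adjusted p = 0.00924). Nlrc5, which activates MHC class I genes, and Gbp6 fell by 1.11 and 2.07 on the log2 scale (adjusted p = 0.0129 and 0.0183). Without either day 28 library the calls lower were lost and those higher were fewer. Without any 1 day 5 library, 2 to 4 of these genes were called lower, and without either day 14 library more were. Calls over all genes between days 5 and 28 moved the same way, down without a library of day 5 or day 28 and up without one of day 14.

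Of 8 cytokine target genes of IRF5, 3 fell from day 5 to day 14 (Il1b, Il1a and Il6, log2 fold changes -0.79, -1.20 and -1.71, adjusted p = 0.0184, 0.0310 and 0.0388, at 735 and 618, 126 and 71.9, and 6.98 and 3.97 FPKM in day 14 replicates 1 and 2) and 2 fell from day 5 to day 28 (Il1b and Il1a, -0.63 and -1.11, adjusted p = 0.0129 and 0.0164). None rose. The count between days 5 and 14 was 1 without day 14 replicate 2 or either day 28 library and 0 without any 1 day 5 library, and that between days 5 and 28 was 0 without either day 28 library.

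The IL-4 response genes tied to IRF4 moved in both directions. Of 7, 1 rose and 2 fell from day 5 to day 28, beside 7.74% and 7.51% of all genes. Their median log2 fold change was -0.31. Retnla, a secreted protein of alternatively activated macrophages, was at 3.21, 6.0 and 6.32 FPKM at day 5, 117 and 58.4 FPKM at day 14, and 95.5 and 50.8 FPKM at day 28 (log2 fold change to day 28 3.85, adjusted p = 9.3e-04). Arg1, the arginine-degrading enzyme, was at 998, 656 and 893 FPKM at day 5, 235 and 262 FPKM at day 14, and 387 and 271 FPKM at day 28 (-1.35, adjusted p = 0.00485). Mrc1, the mannose receptor, fell by 0.73 on the log2 scale (adjusted p = 0.0347). Without day 28 replicate 1 or any 1 day 5 library, 1 of these genes was called lower. Retnla and Arg1 were also called between days 5 and 14 (4.10 and -1.77, adjusted p = 0.00510 and 0.00926).

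Of 10 IRF8 target genes, 4 fell from day 5 to day 28 and none rose, with a median log2 fold change of -0.19. These were Fcgr1, a high-affinity IgG receptor (-1.73, adjusted p = 0.00210), Pml (-1.33, adjusted p = 0.00334), the lysosomal protease gene Ctsc (-0.88, adjusted p = 0.00501) and Il18 (-1.17, adjusted p = 0.0223). Among 11 DNA-binding partners of IRF4 and IRF8, Jun, an AP-1 subunit, was the only one called. It was at 92.4 to 112 FPKM at day 5, and at 247 and 315 FPKM in day 14 replicates 1 and 2, and rose between these days (log2 fold change 1.51, adjusted p = 0.00926) and was higher at day 28 than at day 5 (0.72, adjusted p = 0.0321, lost without day 28 replicate 2 and without any 1 day 5 library). The PU.1 gene Spi1, listed as Sfpi1, was at 398 to 472 FPKM in the day 5 libraries, 456 and 416 in those of day 14, and 329 and 400.4 in those of day 28, and Batf3 at 4.94 to 7.86, 9.73 and 7.24, and 7.19 and 6.81 FPKM. Neither was called.

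**Figure D5:**
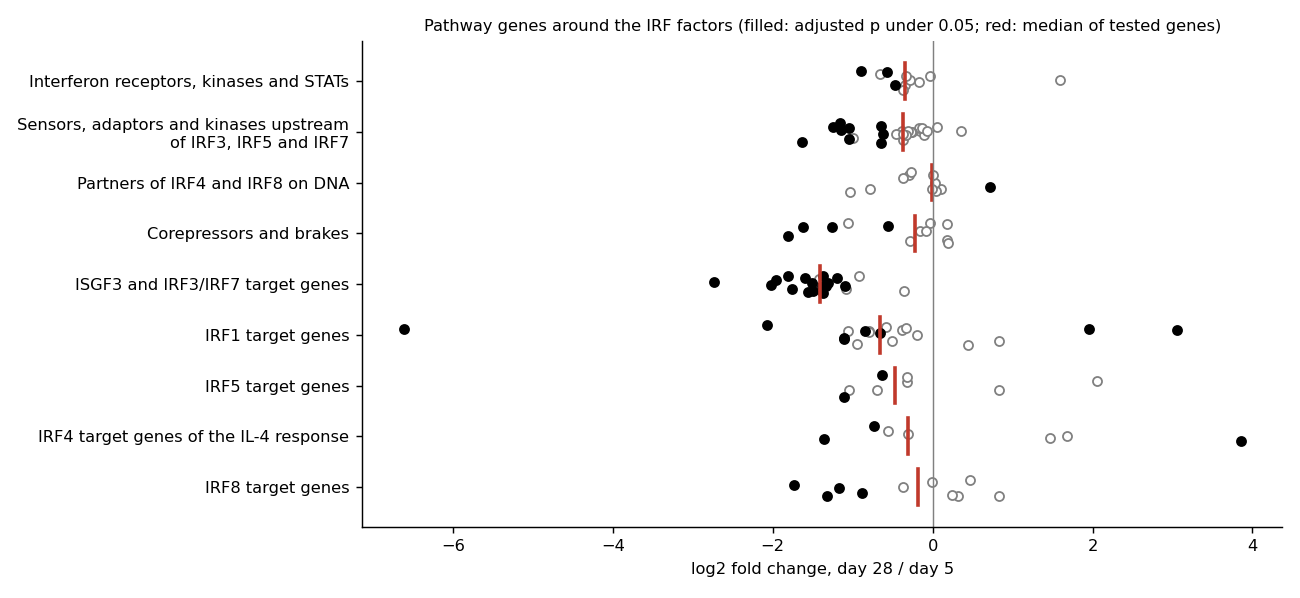
Log2 fold change from day 5 to day 28 (horizontal axis) of each tested gene in 9 lists around the IRF factors, filled where the adjusted p was under 0.05, with the list median as a red bar. The ISGF3 and IRF3/IRF7 targets had a median of -1.40 and no gene above 0, while IRF1, IRF4, IRF5 and IRF8 targets lay on both sides of 0.

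Among the cells the sort excluded were those with Ly6G, Siglec F, CD3e, Ter119 or Thy1.2, which mark granulocytes, eosinophils, T cells, red blood cells and fibroblasts. Markers of cells that use IRF factors were read beside these results. Irf4 is high in plasma cells and some dendritic cells. The B lineage genes Ms4a1 and Mzb1 had 0 to 6 fragments in every library, but Sdc1, a plasma cell marker that is also made by other cells, was at 33.7 to 54.8 FPKM in the day 5 libraries, 63.4 and 93.9 in those of day 14, and 126 and 98.1 in those of day 28, and rose from day 5 to day 28 (log2 fold change 1.28, adjusted p = 0.00867, lost without day 28 replicate 1). All 8 B and plasma cell markers together summed to 40.2 to 64.2, 74.2 to 100.1 and 103 to 131 FPKM at days 5, 14 and 28, most of which was Sdc1. Cd79b, the only other one of them tested, was at 9.26, 6.92 and 6.41 FPKM at day 5, 10.3 and 6.03 at day 14, and 4.83 and 4.38 at day 28 (log2 fold change to day 28 -0.69, adjusted p = 0.126). The 8 conventional dendritic cell markers summed to 8.48 to 13.8 FPKM in the day 5 libraries, 25.1 and 11 in those of day 14, and 20.2 and 31.1 in those of day 28, so that both day 28 libraries were above those of day 5, as for Irf4, while day 14 spanned from within the day 5 range to above the lower day 28 library. The largest part of this sum was Ccr7, at 3.73 to 8.27 FPKM in the day 5 libraries, 15.1 and 7.16 in those of day 14, and 12.6 and 23.0 in those of day 28. The median log2 fold change of the 8 markers was -0.29 between days 5 and 14 and 0.57 between days 5 and 28. Of these, Ccr7 was called higher at day 28 than at day 5 (log2 fold change 1.43, adjusted p = 0.0400, not called by DESeq2 or without any 1 library of day 5 or day 28), and the lineage genes Flt3, Xcr1, Clec9a and Zbtb46 were at most 1.62 FPKM in any library. The part of such cells in the rise of Irf4 was not tested.

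Irf7 and Irf8 are high in plasmacytoid dendritic cells. The 7 markers of these cells summed to 17.7 to 19.7 FPKM in the day 5 libraries, 16.9 and 12.4 in those of day 14, and 10.4 and 11.5 in those of day 28. Most of this sum was Tcf4, at 8.67 to 17.4 FPKM, which fell from day 5 to day 28 (log2 fold change -0.69, adjusted p = 0.0181, lost without day 28 replicate 1 and without day 5 replicate 1 or 2). The defining gene Siglech had 0 to 37 fragments per library and was at most 0.478 FPKM. The part of these cells in the decline of Irf7 was not tested. Of the other lists, the T and NK cell genes summed to at most 15.5 FPKM, with Cd3e at 1 to 5 fragments, the 6 Schwann cell genes to at most 0.685 FPKM, and the 5 endothelial genes to 14.6 to 26.9 FPKM at day 5 and 3.75 to 6.86 FPKM at day 28. At day 28 against day 5, Cd4, Siglec5 and Tek were called higher, and Csf3r, a granulocyte marker that monocytes share, Kdr and Pecam1 lower. Siglec5 is the listed name of the gene of Siglec F, which the sort excluded. It was at 0.551, 0.507 and 0.413 FPKM at day 5, 1.15 and 0.694 FPKM at day 14, and 1.57 and 1.91 FPKM at day 28. Without either day 28 library, no gene of the T and NK cell list or of the granulocyte and mast cell list was called higher, and the call for Tek was lost without day 28 replicate 1 and without day 5 replicate 2 or 3. The granulocyte and mast cell list summed to 315 to 346, 566 to 573 and 141 to 286 FPKM at days 5, 14 and 28. Most of this sum was S100a9 and S100a8, at 333.7 and 160.8 FPKM in day 14 replicate 1 and 294.9 and 218.3 FPKM in replicate 2. Cpa3, Elane, Epx and Mpo had at most 9 fragments in any library. The part of granulocytes in this sum was not tested.

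The genes most like each called member over the 7 libraries were sought among 7555 tested genes whose mean FPKM was 5 or more, by Pearson's r of log2 CPM, as a description over libraries that differ in time point and depth. For Irf7 they were Usp18 (r = 0.997), Ly6e (0.996) and Oas1a (0.996), all known as interferon-induced genes. Ly6e was at 455, 456 and 371 FPKM at day 5, 534 and 250.2 FPKM at day 14, and 108 and 82.7 FPKM at day 28, with the same split of day 14 as Irf7. For Irf9 they were Lst1 (0.990), Ifitm3 (0.986), which restricts virus entry, and Ms4a7 (0.985). Ifitm3 was at 1427 to 1635 FPKM in the day 5 libraries, 1499.9 and 936 in those of day 14, and 724 and 538 in those of day 28. Among the 3 for Irf4 were Pmepa1 (0.991), a target of TGF-beta signalling, and Mrpl9 (0.979), a mitochondrial ribosomal protein. Pmepa1 was at 2.99 to 3.53 FPKM in the day 5 libraries, 6.73 and 4.94 in those of day 14, and 8.57 and 9.49 in those of day 28. Among the members themselves, Irf7 and Irf9 were most alike (r = 0.97), followed by Irf1 and Irf8.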

How the data were processed

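Macrophage libraries from days 5, 14 and 28 were analysed at the gene level. Per the labels and the methods, reads were single-end and the authors used cutadapt 1.8 for trimming, TopHat2 2.0.13 for mapping to mm10 and Cuffdiff 2.2.1 for quantification. The authors deposited an estimated count of fragments per gene (an expected count, not always whole), the same counts as a scaled signal after library scaling by cuffdiff, and FPKM values. How multi-mapped reads were shared and whether strand was used in counting is not given in the sources used here.

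The fragment counts (0.947% of values were not whole) were rounded and 1 edgeR model (version 4.0.16, R 4.3.3) was fitted to the 7 libraries with time point as the only factor, after its filter on low counts and TMM scaling. Quasi-likelihood F tests were adjusted by the Benjamini-Hochberg method over the 12858 genes that remained, with a threshold of 0.05. edgeR took the place of cuffdiff's test, which needs the alignments. SE were derived from the F statistic. Called means an adjusted p under 0.05, and counts in lists use the same calls over all genes. The scripts were tested on simulated data. Gene positions are those of GENCODE M21 and promoters those of RefSeq. Alternatives were DESeq2 1.42.0, limma 3.58.1 on log2(FPKM + 1) or log2(FPKM + 0.1) with a mean FPKM of at least 1 or no filter, other scaling, no count filter, the fit on the compared time points, a replicate block, a threshold of 0.01 and leaving out each library. Leaving out a library of day 14 or 28 left 1 in that group, which was then assumed to vary like the others.

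Named were all members, the 3 genes most like each called member, Stat2, Ifnb1, Ifng, Spi1, Batf3 and Irf2bp2, and in each list the called genes with the lowest adjusted p, up to 3 in each direction. Other genes (Socs3, Il18 and the marker genes at low levels) were added with their values in view. The members and lists were chosen with earlier results of these data known. The lists share genes, with Il12b among the targets of IRF1, IRF5 and IRF8. Interferon genes of the list that are not in the table were not analysed here. Some genes that this rule names are not reported here.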

Additional observations from a re-analysis of the deposited data

How the results depend on the processing

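The rise of Irf4 and the decline of Irf7 from day 5 to day 28 passed the threshold in each of 18 alternatives. The number of IRF members called between days 5 and 14 (1) was 0 with limma in its 3 forms, with the fit on the compared time points, with the replicate block in both pairings and at a threshold of 0.01, and 0 to 2 when a library was left out. For days 14 and 28 (0) it was 2 with DESeq2, 2 with no expression filter and 0 to 2 when a library was left out. For any difference over time (3) it was 0 with limma without a filter and 1 to 4 when a library was left out. For days 5 and 28 (3) it was 2 to 3 when a library was left out and 4 with DESeq2. The causes were not tested.

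Small differences changed sign. With the replicate block the log2 fold change of Irf2 between days 5 and 14 was 0.015 and that of Irf3 between days 5 and 28 was 0.010 (0.013 and 0.0033 with the day 28 numbers swapped). When a library was left out, the range between days 5 and 14 was -0.52 to 0.20 for Irf1, -0.33 to 0.24 for Irf2, -0.94 to 0.27 for Irf7 and -0.22 to 0.46 for Irf8. For days 14 and 28 it was -0.66 to 0.064 for Irf1, -0.14 to 0.43 for Irf2 and -0.058 to 0.28 for Irf3, and for days 5 and 28 it was -0.012 to 0.16 for Irf2 and -0.22 to 0.12 for Irf3. Other scalings moved the median of all genes by at most 0.016 on the log2 scale and reversed no member.

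Same-numbered libraries did not deviate together throughout (correlation 0.28 for days 5 and 14, -0.14 for days 14 and 28, -0.0011 for days 5 and 28), and nothing in the labels pairs them. Under the replicate block, 6, 0 and 735 genes were called between days 5 and 14, 14 and 28, and 5 and 28, against 614, 8 and 1960 without it, and 0, 0 and 3 members. With the day 28 numbers swapped, a pairing added after seeing the data, 357, 63 and 1579 genes and 0, 1 and 3 members were called. For the same comparisons DESeq2 called 1392, 346 and 2485 genes, edgeR without an expression filter 1429, 390 and 2466, with the compared time points only 315, 0 and 2778 and at a threshold of 0.01 24, 0 and 597, and limma 214, 0 and 1547, or 239, 1 and 1565 with the smaller pseudocount, or 0, 0 and 1008 without a filter. Leaving out a library gave 52 to 1728, 0 to 629 and 452 to 2746. For any difference, 1466 genes were called, 2482 by DESeq2, 2517 without a filter, 267 by limma without a filter, 295 with the block, 290 at 0.01 and 389 to 2652 when a library was left out. Of 2052 counts over gene lists in the alternatives, 1724 were equal to the reported count or within 1.5 times of it. A count of 0 that stayed at 0 was taken as equal, as in every interferon gene and Schwann cell count. The number 1724 therefore says little of the counts above 0. Among those, the 6 IRF1 targets called lower between days 5 and 28 were 11 with DESeq2 and 5 with the replicate block. The 16 ISGF3 and IRF3/IRF7 targets were 17 and 12.

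The small number of libraries at days 14 and 28, and the distance between those of day 14, limit every comparison with day 14. Members had at least 302 fragments per library, whereas 1 of 19 interferon genes passed the expression filter.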
